A study of Mus musculus with 5 samples.

Results

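The sirtuin genes are the 7 genes Sirt1 to Sirt7, taken by name out of 22380 annotated protein-coding genes of the mouse, and all 7 of them were found in the annotation. Their H3K9ac peaks were those centred within 10 kb of any of a gene's annotated transcript starts. This gave 32 peaks in the list for treated cells and 28 in the list for untreated cells.

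STHdh Q111 cells are conditionally immortalized striatal progenitors, a single cell line with mutant huntingtin at both alleles (STHdhQ111/Q111, strain C57BL/6). For 24 h they received serum-free medium with vehicle (untreated, 2 samples) or with 4 mM 4-deoxypyridoxine hydrochloride (DOP, an inhibitor of sphingosine-1-phosphate lyase, 2 samples), so serum starvation and the mutant genotype are common to both groups. H3K9ac, a mark of active promoters, was mapped by ChIP-sequencing, and each condition was deposited as 1 list of peaks (34286 after DOP, 33355 without it) with no values per sample. The lists hold more peaks than the methods of the study count, for a reason not given in the sources used here, so weak peaks described here may not be among those counted there. No replicate error can therefore be given, the number of reads per sample is not known, and every difference described here is one between 2 lists.

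Sirtuins form the class of deacetylases that consume NAD with each reaction, which ties the removal of acetyl and other acyl groups to the metabolic state of a cell. Sirt1, Sirt6 and Sirt7 act mainly in the nucleus, and H3K9ac itself is a substrate of Sirt6 and Sirt1. Sirt2 acts largely in the cytoplasm, on tubulin among other proteins, whereas Sirt3, Sirt4 and Sirt5 reside in mitochondria. The sphingosine-1-phosphate degraded by the lyase that DOP inhibits is known to bind Hdac1 and Hdac2, zinc-dependent deacetylases of another class. The marker check of the cell label was mixed. Among 4 progenitor genes Vim had 3 DOP-treated and 4 untreated peaks, while Nes, Sox2 and Pax6 had 0 in both lists. Of 3 genes of mature striatal neurons, Drd1a and Drd2 had 0 in both and Ppp1r1b had 4 in each, of which 2 DOP-treated and 1 untreated were nearest to Ppp1r1b itself.

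Sequence is given for 5 of the sirtuin genes. The Sirt4 run is a peak interval and the Sirt5 run overlaps one in part, whereas the runs of Sirt1, Sirt2 and Sirt3 lie beside the peak intervals and overlap none in either list. The runs below are read 5′ to 3′ on the strand of the sirtuin gene, from the mm9 assembly, with each CG dinucleotide in capitals and with annotated exons left out. Sirt1 is shown because its start was the most CG-rich and held the strongest peak nearest to a sirtuin start. Sirt2 and Sirt3 are shown because each shares a divergent promoter with a neighbour, Sirt4 because its strongest peak lay away from its own start, and Sirt5 because its strongest peak ranked lowest among the 7 genes.

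Sirt1, chr10:62801799-62802033, minus strand, just before the start: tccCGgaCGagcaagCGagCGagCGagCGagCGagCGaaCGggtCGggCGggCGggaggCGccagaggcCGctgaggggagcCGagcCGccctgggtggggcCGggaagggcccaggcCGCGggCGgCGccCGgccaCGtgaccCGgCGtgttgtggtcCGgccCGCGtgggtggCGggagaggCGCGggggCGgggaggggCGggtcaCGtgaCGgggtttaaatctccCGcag

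Sirt2, chr7:29551660-29551753, plus strand, between the starts of Nfkbib and Sirt2: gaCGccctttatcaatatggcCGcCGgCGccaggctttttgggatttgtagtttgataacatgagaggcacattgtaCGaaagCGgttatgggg

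Sirt3, chr7:148067769-148067866, minus strand, between the starts of Psmd13 and Sirt3: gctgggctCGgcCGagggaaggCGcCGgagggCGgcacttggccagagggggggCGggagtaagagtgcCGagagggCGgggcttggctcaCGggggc

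Sirt4, chr5:115939994-115940193, minus strand, the interval of its strongest DOP-treated peak: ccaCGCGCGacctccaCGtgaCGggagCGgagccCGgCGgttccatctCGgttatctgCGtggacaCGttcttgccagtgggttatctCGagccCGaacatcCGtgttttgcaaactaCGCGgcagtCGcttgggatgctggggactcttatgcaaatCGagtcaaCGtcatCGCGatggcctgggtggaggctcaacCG

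Sirt5, chr13:43460632-43460881, plus strand, just before the start: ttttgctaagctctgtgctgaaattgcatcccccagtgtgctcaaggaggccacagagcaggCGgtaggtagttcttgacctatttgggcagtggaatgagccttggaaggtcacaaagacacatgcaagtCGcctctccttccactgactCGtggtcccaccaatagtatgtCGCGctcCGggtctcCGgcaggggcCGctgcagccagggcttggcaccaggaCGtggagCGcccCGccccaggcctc

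The Sirt1 run holds 36 CG dinucleotides in 235 bases and is 78.3% G or C. The Sirt5 run holds 11 in 250 bases at 60.0%, the Sirt3 run 9 in 98 bases at 76.5%, and the Sirt2 run 6 in 94 bases. In the 250 bases before the promoter start of each gene, Sirt1 had 39 CG dinucleotides, Sirt3 21, Sirt2 12, Sirt5 11, Sirt4 10, Sirt6 5 and Sirt7 2. The median over the most upstream starts of all 22380 genes was 8, and 81.0% of genes had fewer than Sirt3, whereas 16.6% had fewer than Sirt7. Sirt1 is not ranked in this way, since its window lies at the start nearest to its strongest peak and not at its most upstream start. The Sirt3 window lies before the outer of its starts, within Psmd13, and so differs from the printed run between the genes. The Sirt2 window holds the printed Sirt2 run and reaches past a start of Nfkbib into that gene. The Sirt7 window lies before the outermost of its starts, within Mafg, so its count of 2 covers only those bases. A group of Sirt7 starts lies further downstream, from 120486334 to 120486283. The shared Sirt7 peak beside this group held 31 CG dinucleotides in each list.

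Several short motifs were searched on both strands of these 250 bases, and shares of all promoters again refer to the most upstream start of each gene. The GC box GGGCGG, bound by Sp1 and related factors, occurred at Sirt1, Sirt2 and Sirt5, with 6 copies at Sirt1, and in 39.6% of all promoters, and the printed Sirt3 run held 3 copies. The CCAAT box occurred at Sirt2 and Sirt5 and in 35.0% of all promoters. The printed Sirt2 run, which is part of the Sirt2 window, held 0 copies of the GC box and 0 of the CCAAT box. Among the 7 windows the E box CACGTG was found at Sirt1 only, in 2 copies, and it occurred in 6.51% of all promoters. The printed Sirt4 run, which lies outside its window, held 1 copy of it. The ETS core CCGGAA was found in the window of Sirt3 only and in 13.9% of all promoters. TATAAA (12.3% of all promoters), TGACGTCA (1.91%) and GCATGCGC (2.71%) were in none of the 7 windows.

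Every one of the 7 sirtuin genes had peaks in both lists. The share of protein-coding genes with at least 1 peak was 57.7% after DOP and 56.9% without it. Sirtuin genes carried between 2 and 8 peaks in each list, with a median of 4 in the DOP-treated and 3 in the untreated list, beside a median of 3 in both lists over all genes that had any. Sirt7 was at the upper end with 8 peaks in each list, a number that 3.87% of the genes with a DOP-treated peak and 3.65% of those with an untreated peak reached or passed. Sirt4, Sirt2, Sirt6 and Sirt3 each had 1 peak more in the DOP-treated list, Sirt1, Sirt5 and Sirt7 had equal numbers, and no sirtuin gene had more in the untreated list. The direction turned at Sirt2, which had 1 DOP-treated and 2 untreated peaks when peaks were given to the nearest start only, and 2 and 3 with a score of at least 100. Of the 13272 genes with any peak, 32.5% had more DOP-treated peaks, 28.5% had fewer and 39.0% had the same number.

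Many of these peaks lay closer to another gene. Nearest here refers to the starts of protein-coding genes, and other annotated genes are named where they were closer. Of the 32 DOP-treated peaks 17 were nearest to a start of the sirtuin gene itself, and of the 28 untreated peaks 15. Over all genes, the share of peaks in a gene's window that were nearest to that gene was 70.0% after DOP and 70.0% without it. The neighbours were Dnajc12 at Sirt1, Nfkbib at Sirt2, Psmd13 at Sirt3, Ankrd24 at Sirt6, and Mafg and Pcyt2 at Sirt7. Among protein-coding genes Sirt4 and Sirt5 were the nearest to all of their peaks, whereas Sirt3 was the nearest to none. At Sirt4, 4 of the 6 DOP-treated and 3 of the 5 untreated peaks were closer still to a U4 gene or a pseudogene.

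**Figure D1:**
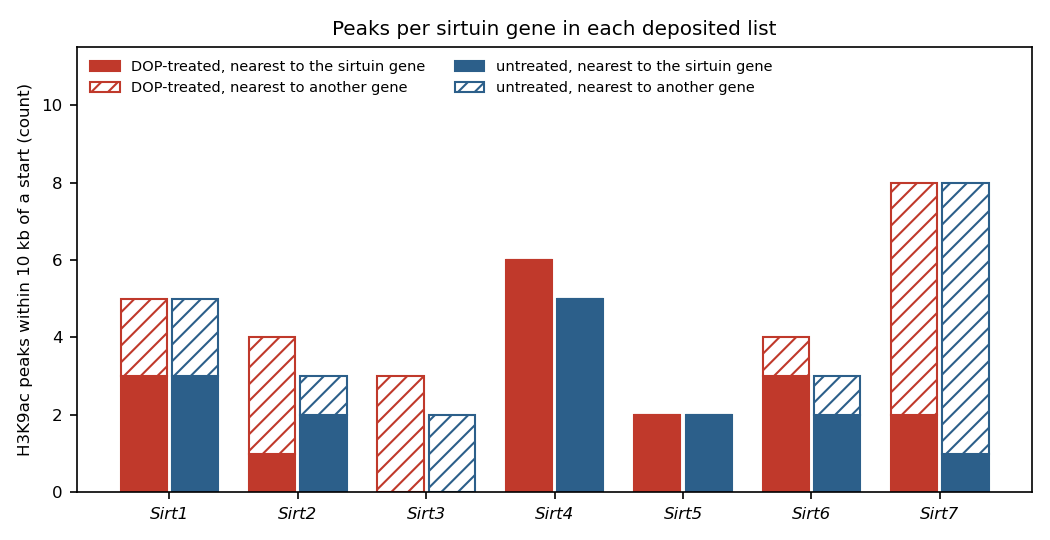
Number of H3K9ac peaks within 10 kb of a start site of each sirtuin gene (y axis, count) in the DOP-treated (red) and untreated (blue) list, with filled bars for peaks nearest to the sirtuin gene and hatched bars for peaks nearest to another gene. Sirt7 has 8 peaks in each list, of which 2 DOP-treated and 1 untreated are nearest to Sirt7, and the bars of Sirt3 are hatched throughout.

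The strength of a peak is given as the percentile of its score within its own list, where 100 is the strongest. Among the nuclear sirtuins, Sirt1 (ENSMUSG00000020063, chr10:62781753-62844452, minus strand) deacetylates histones and factors such as p53. It had 5 peaks in each list, and all of them were shared, which means that the intervals overlapped by at least 1 bp. Its strongest peak was centred 290 bp downstream of a start in a coding exon, at percentile 97.4 in the DOP-treated list, and its untreated partner lay 1 bp away at percentile 94.9. A second peak, in an intron, was centred at 610 bp with percentile 84.0 after DOP and at 552 bp with percentile 89.7 without it. The weak peak before the start was at percentile 31.6 in the DOP-treated list (352 bp upstream) and 18.7 in the untreated list (537 bp upstream). The order of the 3 peaks by strength was thus the same in both lists.

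The remaining pair of Sirt1 peaks came into the window through a distant start. That start, at 62844452, lies 739 bp from that of Dnajc12, a chaperone gene on the other strand. One peak, in an intron of Dnajc12 and 104 bp from one of its starts, ranked at percentile 52.4 after DOP and 33.6 without it. The other, in a coding exon of Dnajc12, ranked at 42.3 and 41.9. The strong Sirt1 peaks were far richer in G and C than most peaks, with 85.0% at 290 bp in the DOP-treated list, against a median of 59.5% over all peaks of that list.

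Sirt6 (ENSMUSG00000034748, chr10:81084530-81090542, minus strand) encodes the chromatin-bound enzyme that removes acetyl groups from H3K9. It had 4 DOP-treated and 3 untreated peaks. The strongest, in the 5′ UTR of the gene, was centred at 81089962 in the DOP-treated list with percentile 62.2 and at 81089969 in the untreated list with percentile 61.5. The next lay at 81090204 in an intron (percentile 41.1) after DOP and at 81090259 in a coding exon (percentile 43.7) without it, so both promoter peaks kept nearly the same rank. A further DOP-treated peak at 81090495, in the 5′ UTR at percentile 30.2, had no overlapping untreated peak, and the nearest untreated centre was 236 bp away. The peak furthest from Sirt6, 6102 bp upstream in an intron of Ankrd24, was at percentile 33.0 after DOP and 20.9 without it.

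Sirt7 (ENSMUSG00000025138, chr11:120479686-120486554, minus strand) is the nucleolar sirtuin, linked to transcription of ribosomal RNA genes. One peak of Sirt7 itself was in both lists, in a coding exon 210 bp downstream of a start, at percentile 84.3 in the DOP-treated and 85.7 in the untreated list, with centres 1 bp apart. A DOP-treated peak centred 97 bp upstream of the first start, in the 3′ UTR of the neighbouring gene Mafg, ranked at percentile 52.1. It was the highest-ranking sirtuin peak found in 1 list only, and the nearest untreated centre was 579 bp away. The strongest peaks of the Sirt7 window belonged by position to Mafg, which encodes a small Maf transcription factor. They reached percentile 95.5 in the DOP-treated and 97.2 in the untreated list, at 8032 and 8040 bp upstream of Sirt7. Flanking peaks ranked at 89.5 and 90.0 (7675 and 7667 bp upstream), at 58.4 and 51.2 (5166 and 5215 bp), and at 50.2 and 49.3 (8711 and 8693 bp). The last of these lay outside protein-coding genes. A start of the long non-coding RNA gene Gm17586, at 183 and 165 bp, was closer to it than Mafg. The other flanking peaks lay in introns of Mafg. Downstream, a peak in an intron of Pcyt2 (an enzyme of phosphatidylethanolamine synthesis) ranked at 87.8 and 89.6, and a weaker one at 46.4 and 33.3. An untreated peak in an intron of Mafg, at percentile 37.6, had its nearest DOP-treated centre 424 bp away and was found in that list only.

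Sirt2 (ENSMUSG00000015149, chr7:29551754-29573684, plus strand) is the cytoplasmic tubulin deacetylase. Its first start lies 95 bp from a start of Nfkbib, an inhibitor of NF-kappa-B, on the opposite strand, and the printed Sirt2 run fills the gap. The peak 222 bp downstream of the nearest Sirt2 start, at 29551786, ranked at percentile 59.1 in the DOP-treated list. Its untreated partner at 234 bp ranked at 57.4. An intron of Nfkbib is also annotated there. On the Nfkbib side a second shared peak ranked at 40.3 and 38.2. The remaining Sirt2 peaks differed between the lists and were weak. DOP-treated peaks 859 and 1180 bp upstream, both in an intron of Nfkbib, ranked at percentiles 8.67 and 6.41. An untreated peak at 29552400, in a non-coding exon of Sirt2, ranked at 17.2. With 2 DOP-treated and 1 untreated peak of this kind, Sirt2 had the most peaks in 1 list only among the 7 genes.

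The mitochondrial Sirt3 (ENSMUSG00000025486, chr7:148049569-148068208, minus strand), the main deacetylase of that organelle, shares its promoter with Psmd13, a subunit of the proteasome. The closest pair of their starts is 99 bp apart, with the printed Sirt3 run between them. The first shared peak, in the 5′ UTR of Psmd13 and 204 bp downstream of the outer Sirt3 start, ranked at percentile 66.5 in the DOP-treated and 58.6 in the untreated list. The second, in an intron of Psmd13 and 298 bp upstream of that start after DOP, ranked at 57.3 and 62.4. Thus one of the pair ranked higher and the other lower in the DOP-treated list. A DOP-treated peak 8541 bp upstream in an intron of Psmd13 ranked at percentile 4.3, the lowest of all sirtuin peaks, and the nearest untreated centre was 8277 bp away. The annotated start closest to it, at 37 bp, was that of Gm15542.

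Sirt4 (ENSMUSG00000029524, chr5:115928019-115934734, minus strand), a mitochondrial enzyme that restrains glutamate dehydrogenase, had a pair of 5′ UTR peaks and a separate group upstream. At the 5′ UTR, the DOP-treated peaks ranked at percentiles 51.6 and 43.4, and their untreated partners at 40.5 and 38.0. The strongest Sirt4 peak was in the upstream group, centred 5359 bp upstream at percentile 77.6 in the DOP-treated list and 5374 bp upstream at percentile 84.8 in the untreated list, outside protein-coding genes. The next, 4595 and 4581 bp upstream, ranked at 43.0 and 49.5. A DOP-treated peak 5256 bp upstream, at percentile 33.3, overlapped the same untreated peak as the strongest one and had no partner of its own. At the paired upstream peaks the rank was lower in the DOP-treated list, while at the 5′ UTR it was higher.

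No other protein-coding start was closer to this upstream group, but annotated genes for U4, a small nuclear RNA of the spliceosome, were. The U4 gene at chr5:115940263-115940403, plus strand, began 170 bp from the strongest DOP-treated centre and 155 bp from the untreated one. The U4 gene at chr5:115939468-115939608, also on the plus strand, began 139 and 153 bp from the centres of the next peak. All these centres lay upstream of the U4 starts. The annotation holds 43 U4 starts, and 2 of them had a DOP-treated peak within 1 kb and 2 an untreated one, which are those in the Sirt4 window. Over all 1423 starts of small nuclear RNA genes the numbers were 59 and 60. The printed Sirt4 run, which ends short of the U4 gene, holds 22 CG dinucleotides in 200 bases and 1 copy of the octamer ATGCAAAT, which occurs in 0.42% of DOP-treated and 0.393% of untreated peak intervals. The octamer was searched after the sequence had been seen. Other upstream peaks of Sirt4 were found in 1 list only: a DOP-treated peak at percentile 15.9, whose nearest untreated centre was 338 bp away, and an untreated peak 7591 bp upstream at percentile 27.4, 139 bp from a start of the pseudogene Gm13836.

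Sirt5 (ENSMUSG00000054021, chr13:43460882-43490571, plus strand), which removes succinyl and malonyl groups from mitochondrial proteins, had the simplest pattern, with 2 shared peaks in each list. The peak at the start, in the 5′ UTR and 16 bp downstream, ranked at percentile 42.9 in the DOP-treated list, and its untreated partner 13 bp downstream ranked at 34.9. The peak in an intron ranked at 49.4 (370 bp) and 29.7 (343 bp). Both Sirt5 peaks ranked higher in the DOP-treated list, the second by 19.6 points. This was the largest difference among sirtuin pairs, and 94.1% of all paired peaks of the 2 lists had a difference at or below it. The strongest peak of Sirt5 was below that of each other sirtuin gene in both lists.

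**Figure D2:**
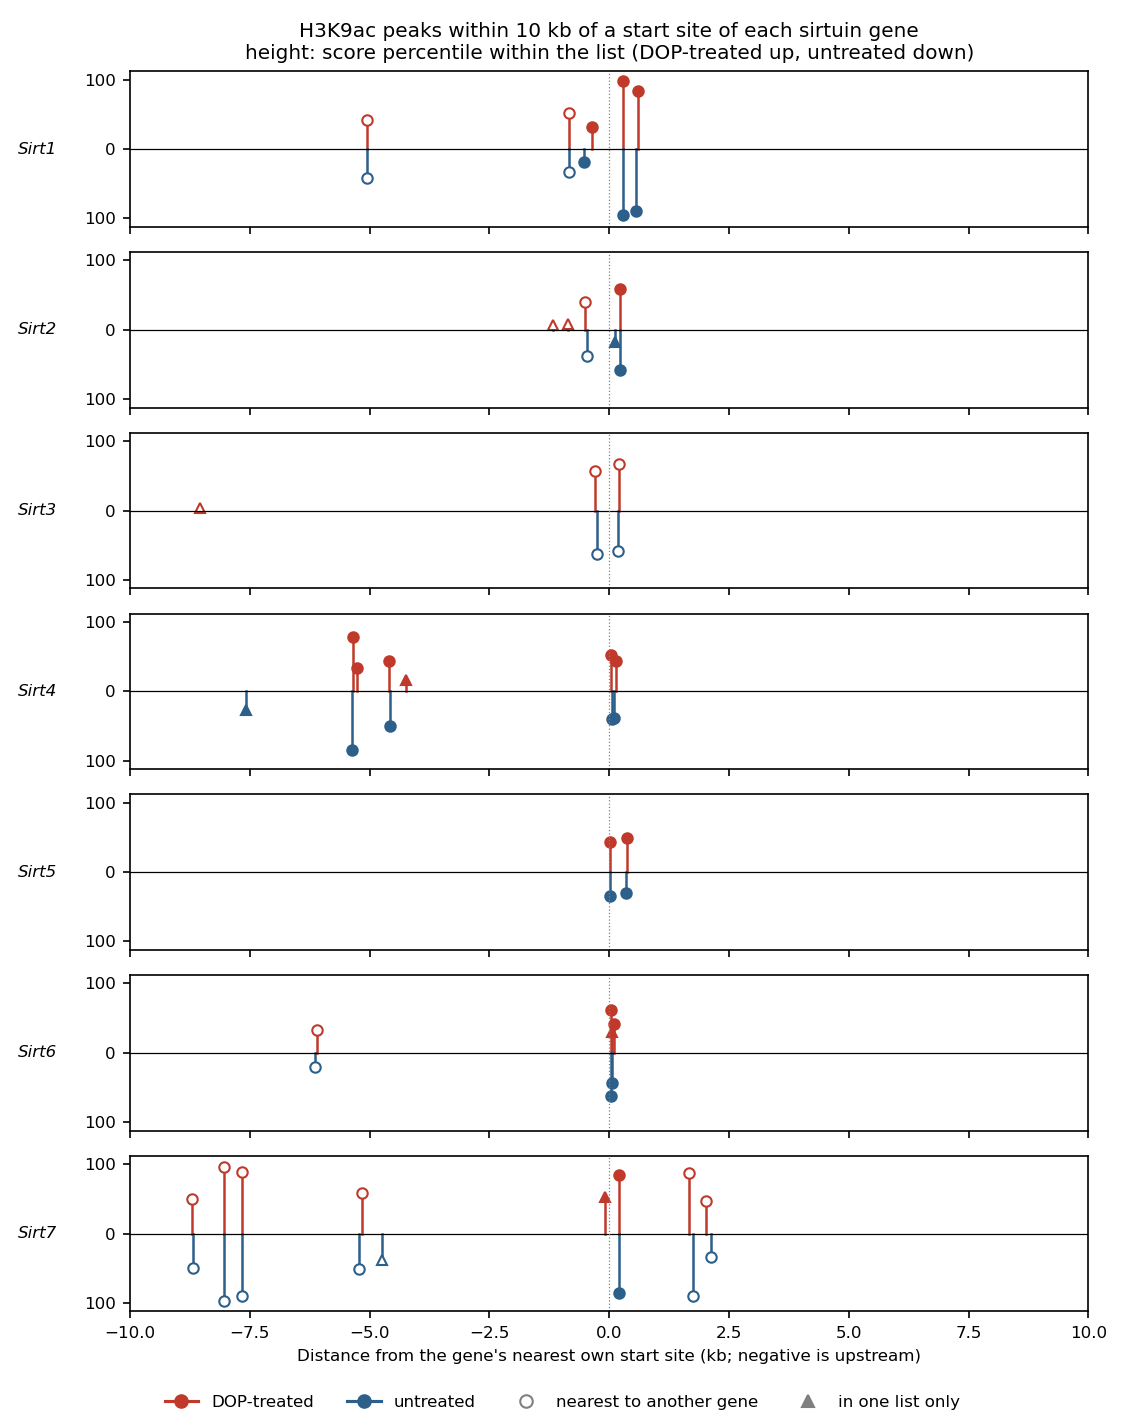
Position and rank of each H3K9ac peak of the 7 sirtuin genes. The x axis is the distance in kb from the gene's nearest own start (negative is upstream), the height is the score percentile (0 to 100) within the list, red stems pointing up are DOP-treated and blue stems pointing down are untreated peaks, open symbols are peaks nearest to another gene, and triangles are peaks found in 1 list only. The strongest Sirt4 peak, 5359 bp upstream after DOP, and the strongest Mafg peak, 8032 bp upstream of Sirt7, stand higher than the peaks at the starts of those genes in both lists.

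Across the family, peaks shared by the lists made up most of the set, at 26 of 32 DOP-treated and 25 of 28 untreated peaks. The 6 peaks of the DOP-treated list only compare with 20.0% of all peaks of that list, and the 3 of the untreated list only with 16.7%. These 9 peaks ranked low to middle, with a median percentile of 12.3 in the DOP-treated and 27.4 in the untreated list, beside 15.5 and 15.2 for all peaks found in 1 list only. The median percentile of all sirtuin peaks was 49.8 in the DOP-treated and 46.5 in the untreated list, so as a set they stood near the middle of each list. Their GC content had a median of 58.5% in both lists, beside 59.5% for all peaks. Unlike the sirtuin peaks, all peaks were not limited to those within 10 kb of a start.

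To compare rank at the same site, overlapping peaks that were each other's nearest were paired, which gave 25 sirtuin pairs out of 25377. The centres of a sirtuin pair lay between 1 and 185 bp apart with a median of 15 bp, beside a median of 29 bp for all pairs. The percentile was higher in the DOP-treated list at 16 sirtuin pairs and lower at 9. The median difference was 1.72 points, beside 1.34 for all pairs, whose quartiles were -3.04 and 6.93. The percentile was higher after DOP by at least 10 points at 6 sirtuin pairs and in 16.9% of all pairs, and lower by that much at 0 sirtuin pairs and in 10.5% of all pairs. The 6 were the upstream peak of Sirt1, the Dnajc12 peak 843 bp from a Sirt1 start, a 5′ UTR peak of Sirt4, the intron peak of Sirt5, the Ankrd24 peak near Sirt6 and a Pcyt2 peak near Sirt7, so that 3 of them were nearest to another gene. None of the 6 ranked above percentile 52.4 in either list. No error can be set on these differences.

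**Figure D3:**
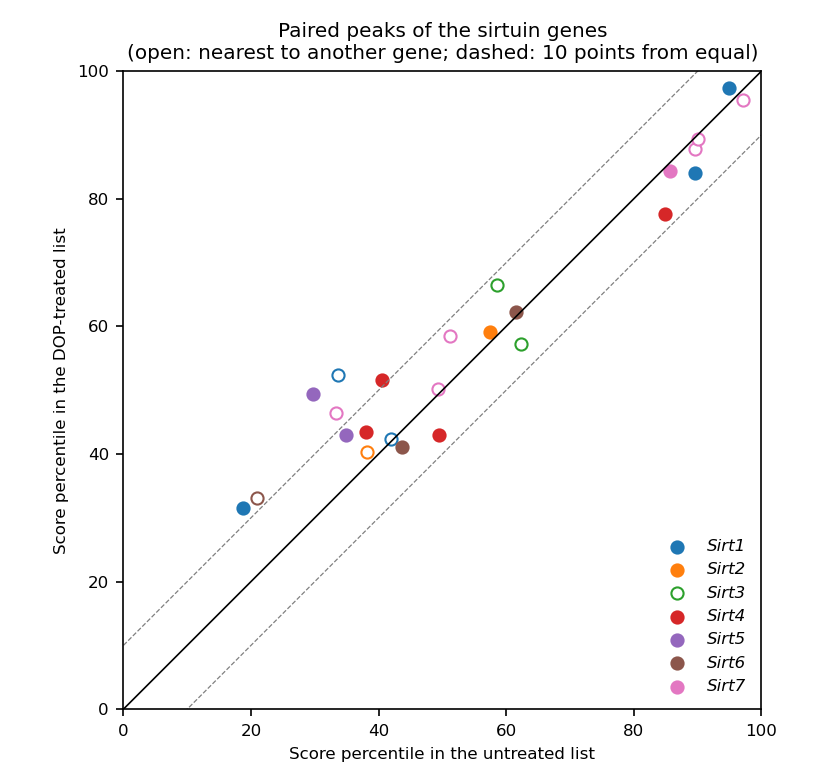
Score percentile of the 25 paired sirtuin peaks in the untreated list (x axis) and the DOP-treated list (y axis), coloured by gene, with open circles for peaks nearest to another gene. The solid line marks equal percentiles and the dashed lines a difference of 10 points, and 6 pairs lie above the upper dashed line while 0 lie below the lower one.

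The edge of the 10 kb window fell in a gap at each gene. The outermost peaks inside it were 8711 bp (DOP-treated) and 8693 bp (untreated) from a start, both at Sirt7. The nearest outside it were 15400 and 15575 bp away, both at Sirt6.

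Other lists place the sirtuin genes among related genes. All 4 class I deacetylases had peaks in both lists, with 15 peaks each in total, and Hdac1 had 5 DOP-treated and 6 untreated peaks. Of 7 class II and IV deacetylases, 5 had peaks in both lists, with 25 DOP-treated and 18 untreated peaks. Hdac7 had the most, 10 and 7, of which 7 and 5 were nearest to Hdac7 itself. Hdac4, which has 2 gene records, and Hdac9 had 0 in both. The strongest peak per gene, over genes with a peak, was taken whether or not it was nearest to that gene. Its median percentile was 66.5 in the DOP-treated and 62.4 in the untreated list for sirtuin genes. It was 90.0 and 88.7 for class I, and 64.3 and 72.6 for class II and IV. Both sirtuin medians were values of Sirt3, whose peaks were all nearest to Psmd13. At Sirt7 the strongest peak was nearest to Mafg, and the strongest one nearest to Sirt7 ranked at 84.3 and 85.7.

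Of 20 genes that make, recycle or consume NAD, 18 were matched in the annotation, and 12 had a DOP-treated and 11 an untreated peak. Naprt1, Nmnat2, Qprt, Nnmt, Cd38 and Bst1 had 0 in both lists. Nampt, the rate-limiting enzyme of NAD salvage, had 3 DOP-treated and 4 untreated peaks, all shared, with the strongest at percentiles 73.1 and 51.7. Nadsyn1, Nadk and Tnks had the most DOP-treated peaks in their windows, with 5 each, beside 5, 4 and 3 untreated peaks. All 5 DOP-treated peaks were nearest to the gene itself at Nadk and Tnks, but 2 at Nadsyn1. Their strongest peaks ranked at percentiles 62.1, 86.9 and 79.2 in the DOP-treated list. In the untreated list these were 52.7, 81.6 and 98.2, so Tnks ranked lower after DOP. Sarm1, an enzyme that breaks NAD down in axons, was the one NAD gene that had peaks after DOP (2, the stronger at percentile 21.8) and 0 without it. In the NAD list 4 genes had more DOP-treated peaks, 3 fewer and 5 the same number. The strongest peak per NAD gene, over genes with a peak, had a median percentile of 70.1 after DOP and 68.1 without it.

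Genes elsewhere in the genome with the most similar layout were found by cosine similarity over 80 values per gene (40 bins of 500 bp in each of the 2 lists). They were 2310008H04Rik for Sirt5 (1.00), Plekhg1 for Sirt3 (0.999), Mfsd8 for Sirt2 (0.998), Naglu for Sirt6 (0.995), BC031181 for Sirt4 (0.975), Serbp1 for Sirt1 (0.945) and Acox3 for Sirt7 (0.775). The likeness was lowest for Sirt7 with its 16 filled bins and highest for Sirt5 with 2, and it describes the layout of peaks in the window and nothing further. Each bin kept only its highest percentile, so the number of peaks could differ. 2310008H04Rik had 1 DOP-treated and 2 untreated peaks, beside 2 in each list at Sirt5. Serbp1 had 6 and 3, beside 5 in each list at Sirt1.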

How the data were processed

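The authors aligned single-end reads to mm9 (Bowtie 2 in the paper's methods, BWA 0.7.10 in the submitters' processing notes) and called H3K9ac events with GPS. The score column of both deposited lists is the authors' value, with a definition not given in the sources used here, and it was used only as a rank within a list. How the 2 samples per condition and the IgG sample entered the call, and the threshold, are not given there either. The IgG sample was not analysed here.

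Start sites came from GENCODE vM1 and bases from the NCBIM37 assembly, which is mm9. All peak intervals fitted within the assembly's chromosomes. Peaks of the lists were shared when they overlapped by at least 1 bp. Each condition is 1 list, so no test was run, and counts are set beside those of all genes or peaks. The functions were tested on simulated data. Alternatives changed the window, the sharing rule, the score minimum and the assignment of peaks.

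The members, gene lists and motifs were chosen with earlier results of these data known. Named genes were the 7 members, the nearest genes of their peaks, the most similar gene of each, and in the other lists genes with 0 peaks, most peaks, or peaks in one list and 0 in the other; Nampt and Hdac1 were added for their role. Promoter windows were the 250 bases before the most upstream start within 1 kb of the start nearest to the strongest peak. Python 3.11.15, numpy 2.4.6, pandas 2.3.3, scipy 1.17.1 and matplotlib 3.10.9 were used.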

Additional observations from a re-analysis of the deposited data

How the results depend on the processing

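No paired analysis was possible because neither condition has a value per sample, so leaving out single samples was not possible either. Of 54 values recomputed with another choice, 33 lay inside the limit set for them and 21 did not. The limit was 1.5 times for counts and the 95% order-statistic interval for medians. That interval was taken over single peaks, several from the same gene's window, so it measures no error between samples. Nearest-start assignment left 17 DOP-treated and 15 untreated peaks, 3 of them DOP-treated only, and 1 gene, Sirt2, with more untreated peaks. A window of 1 kb left 18 and 16 peaks, 3 and 1 of them in 1 list only, and 2 genes with more DOP-treated peaks. The top 50% of each list left 16 and 12 peaks with median percentiles of 64.3 and 85.3, and 0 untreated-only peaks. A score of at least 100 left 3 DOP-treated-only peaks and 2 genes with more DOP-treated peaks, and Sirt2 then had more untreated peaks (1 gene). With centres within 500 bp, 3 DOP-treated and 1 untreated peak were found in 1 list only, and with centres within 1 kb, 1 and 1. The restricted counts are lower by construction, and the medians for the top 50% are higher by construction. The read depth behind the lists is unknown, so no limit of detection can be given for weak peaks.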
